A study of Rattus norvegicus with 12 samples.

Results

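Transcripts of 10 glucose transporters were followed in the ovaries of control rats, rats with letrozole-induced polycystic ovary syndrome (PCOS) and PCOS rats given mogroside V (MV), a sweet triterpenoid glycoside of monk fruit. The 10 genes are those whose symbol in the deposited expression table is Slc2a1, Slc2a3, Slc2a4, Slc2a5, Slc2a6, Slc2a8, Slc2a9, Slc2a10, Slc2a12 or Slc5a1. All 10 were found, each with 1 gene identifier, among the 19730 genes of the table. The level of a gene is given as FPKM (fragments per kilobase of transcript scaled to the depth of the library), which is per length, so levels of different transporters can be set side by side.

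The 12 libraries came from whole ovaries of wild type Sprague Dawley females at 15 weeks of age, with 4 rats in each group. Control rats were untreated. PCOS rats had received letrozole, an aromatase inhibitor, for 30 days, which the study's methods pair with a high-fat diet that the control rats did not get. PCOS-MV rats had received the same letrozole course followed by MV for 30 days. Per the study's methods, letrozole stopped before the MV period, and all rats were killed at the end of treatment. The MV preparation was only partly mogroside V and was given by gavage in saline, and no such gavage of PCOS rats is described. PCOS against PCOS-MV thus differs in this preparation and possibly in gavage, whereas Control against PCOS differs in drug and diet together. Rats of both PCOS groups had been picked by vaginal smears that stayed in metestrus and diestrus, and the cycle stage of each sequenced ovary is not given in the sources used here.

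Glucose cannot cross the plasma membrane by itself and enters cells through carriers. The Slc2a genes encode the facilitative GLUT carriers, which let hexoses run down their gradient and fall by sequence into class I (GLUT1, GLUT3 and GLUT4 here), class II (the fructose carrier GLUT5 and the urate carrier GLUT9) and class III (GLUT6, GLUT8, GLUT10 and GLUT12), while Slc5a1 encodes SGLT1, which moves glucose together with sodium. In the ovary, granulosa cells take up glucose and pass pyruvate and lactate to the oocyte, and steroid-producing cells also draw on glucose.

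Of the 9 transporters tested, Slc2a12 was the only one called different in the comparisons of the study, with a higher mean in PCOS ovaries and a lower one after MV. Among all tested genes, 27.4% and 25.7% were called in these comparisons. The Slc2a12 calls depended on single libraries, as given below. The promoter of Slc2a12 is shown beside that of Slc2a1, the most abundant transporter in every library. This sets the sequence before the called gene next to that before the most abundant one. Each stretch holds the 250 bases before the gene start in RefSeq's GRCr8 assembly, 5′ to 3′ on the gene's strand. The Slc2a12 stretch lies at chr1:24677216-24677465 on the minus strand, and the Slc2a1 stretch at chr5:138002272-138002521 on the plus strand. Capitals mark matches, on either strand, to the GC box GGGCGG or to GCGTG, the core of the hypoxia response element.
Slc2a12: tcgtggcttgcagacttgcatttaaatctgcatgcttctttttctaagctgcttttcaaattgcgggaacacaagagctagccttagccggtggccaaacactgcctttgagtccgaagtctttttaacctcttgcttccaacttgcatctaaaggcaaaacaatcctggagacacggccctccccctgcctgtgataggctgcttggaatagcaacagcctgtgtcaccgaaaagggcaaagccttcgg
Slc2a1: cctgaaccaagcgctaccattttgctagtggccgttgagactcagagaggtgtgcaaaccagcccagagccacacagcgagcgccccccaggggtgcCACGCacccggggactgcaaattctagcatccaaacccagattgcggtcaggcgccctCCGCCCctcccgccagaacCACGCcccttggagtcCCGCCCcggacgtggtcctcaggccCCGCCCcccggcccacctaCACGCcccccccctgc

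The Slc2a1 stretch held 3 GC boxes and 3 GCGTG cores, which did not overlap each other, with 68.4% G or C and 17 CG dinucleotides. The Slc2a12 stretch held neither motif, with 49.2% G or C and 7 CG dinucleotides, beside medians of 51.2% and 5 over 33469 rat promoters of the same length. The GC box occurred in 30.5% of all promoters and GCGTG in 25.9%. An E-box (CACGTG) occurred in 5.59% of all promoters and the half-site of steroid receptors (AGAACA) in 17.5%. The promoter element TATAAA occurred in 12.9% of them and the element CCAAT in 34.0%. None of these 4 had a match in either stretch. A match describes letters and not a bound site, and the absence of a match concerns this window only. Promoters were matched for 7 of the 10 transporters, and those of Slc2a3, Slc2a4 and Slc2a10 were not analysed here.

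Slc2a1 stood first among the 10 transporters in each of the 12 libraries, and the genes behind it changed places between the groups. In control ovaries, Slc2a1 averaged 20.7 ± 7.16 FPKM (SD, n = 4) and was followed by Slc2a8 at 4.64 ± 0.178, with no overlap between them. From Slc2a8 down to Slc2a6 each neighbouring pair in the control order overlapped, although genes further apart did not always: every control value of Slc2a8 was above those of Slc2a9, Slc2a10, Slc2a4 and Slc2a6. In PCOS ovaries, Slc2a12 moved to the second place at 8.47 ± 4.41 FPKM, where its range overlapped that of Slc2a8 at 4.39 ± 0.452. In PCOS-MV ovaries, Slc2a5 took the second place at 8.23 ± 6.39 FPKM, with a range that reached into that of Slc2a1. Slc5a1 was last in each group. These are levels in whole tissue, in which fewer cells of a type and less RNA per cell cannot be told apart.

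**Figure D1:**
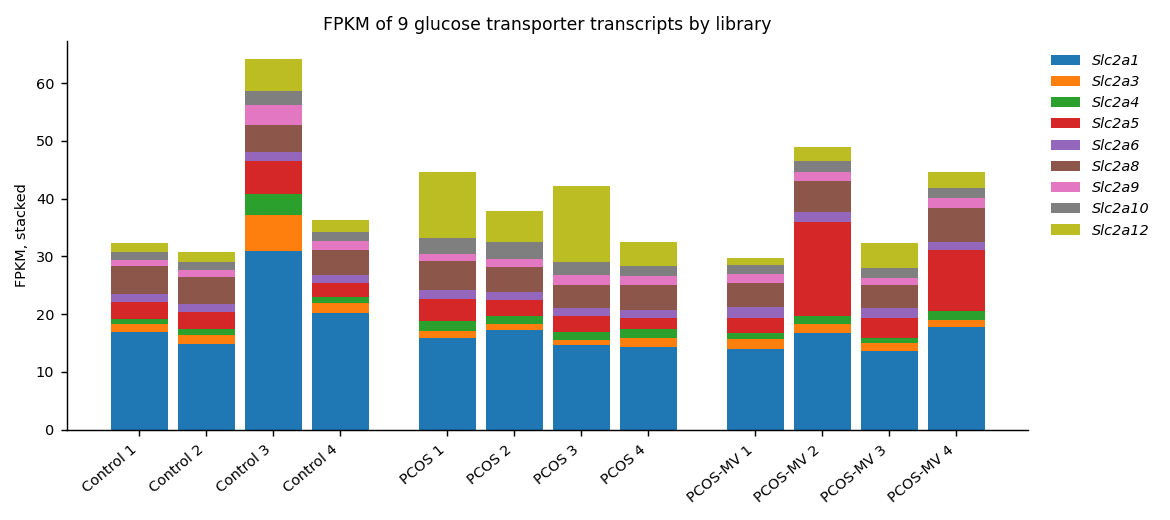
FPKM of the 9 transporters with a mean of at least 1 FPKM, stacked for each of the 12 libraries (vertical axis, FPKM; 1 bar per library; Slc5a1 is too low to be seen). The summed FPKM of all 10 ranged from 30.8 to 64.2 in Control, from 32.5 to 44.6 in PCOS and from 29.8 to 49.0 in PCOS-MV, with the Slc2a12 block widest in PCOS replicates 1 and 3 and the Slc2a5 block widest in PCOS-MV replicates 2 and 4.

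As the stacked plot of FPKM by library shows, Slc2a1 made up 48.1% to 55.8% of the summed transporter FPKM in Control, 34.7% to 45.4% in PCOS and 34.3% to 47.2% in PCOS-MV. The Slc2a12 share was 4.86% to 8.57% in Control, 12.4% to 30.9% in PCOS and 4.39% to 13.7% in PCOS-MV. Thus all 4 PCOS libraries had a higher Slc2a12 share than any control library, while PCOS and PCOS-MV overlapped. The Slc2a1 and Slc2a10 shares also did not overlap between Control and PCOS. For Slc2a10 they were 3.73% to 4.30% and 5.41% to 7.63%. The shares of Slc2a4, Slc2a5 and Slc2a10 did not overlap between PCOS and PCOS-MV. A share depends on the sum, which was 64.2 FPKM in Control replicate 3, and falls when another transporter takes more of it. In FPKM, Slc2a1, Slc2a10 and Slc2a12 overlapped between Control and PCOS. Likewise, Slc2a4, Slc2a5 and Slc2a10 overlapped in FPKM between PCOS and PCOS-MV. The Slc2a5 share was 6.87% to 9.21% in Control, 6.22% to 8.51% in PCOS and 8.62% to 33.1% in PCOS-MV. These shares are descriptions and were not tested.

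Library depth was estimated from the smallest steps between low values, taken as 1 fragment. These steps put all 12 libraries between 30200000 and 36900000 fragments. The step was searched only within a preset range, so depths beyond that range could not have been found. Only 28.0% to 31.7% of the low values lay within 3% of a whole step, where 6% would if spread evenly. Slc5a1 in Control replicate 4 came to 1.5 fragments, which is not a whole number. These depths are therefore approximate. On that scale the FPKM of Slc2a12 rested on 181 to 1619 fragments and that of Slc2a3 on 44 to 291 fragments. The lowest summed marker level in any library was 585 FPKM for granulosa, 1655 for theca, 1458 for luteal and 16.8 for oocyte markers, so the libraries carried the markers of ovary. Control replicate 3 stood apart from the other control libraries, with correlations of 0.954 to 0.970 to them, and its marker sums are given below because most transporters were high in it.

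The first question was how the PCOS model changed the transporters. Of 9 transporters with a mean of at least 1 FPKM, 1 was called in PCOS against Control (limma, Benjamini-Hochberg adjusted p under 0.05 over 13430 genes), where 27.4% of all tested genes were called. The median difference over the 9 transporters was -0.07 on the log2(FPKM + 1) scale, beside -0.03 over all tested genes, and 4 of the 9 were above 0. The share of transporters called was therefore not above the background. In 0 of the 9 did the PCOS and control libraries separate without overlap, where they did in 31% of all tested genes. Differences on this scale understate the change of genes with low FPKM.

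**Figure D2:**
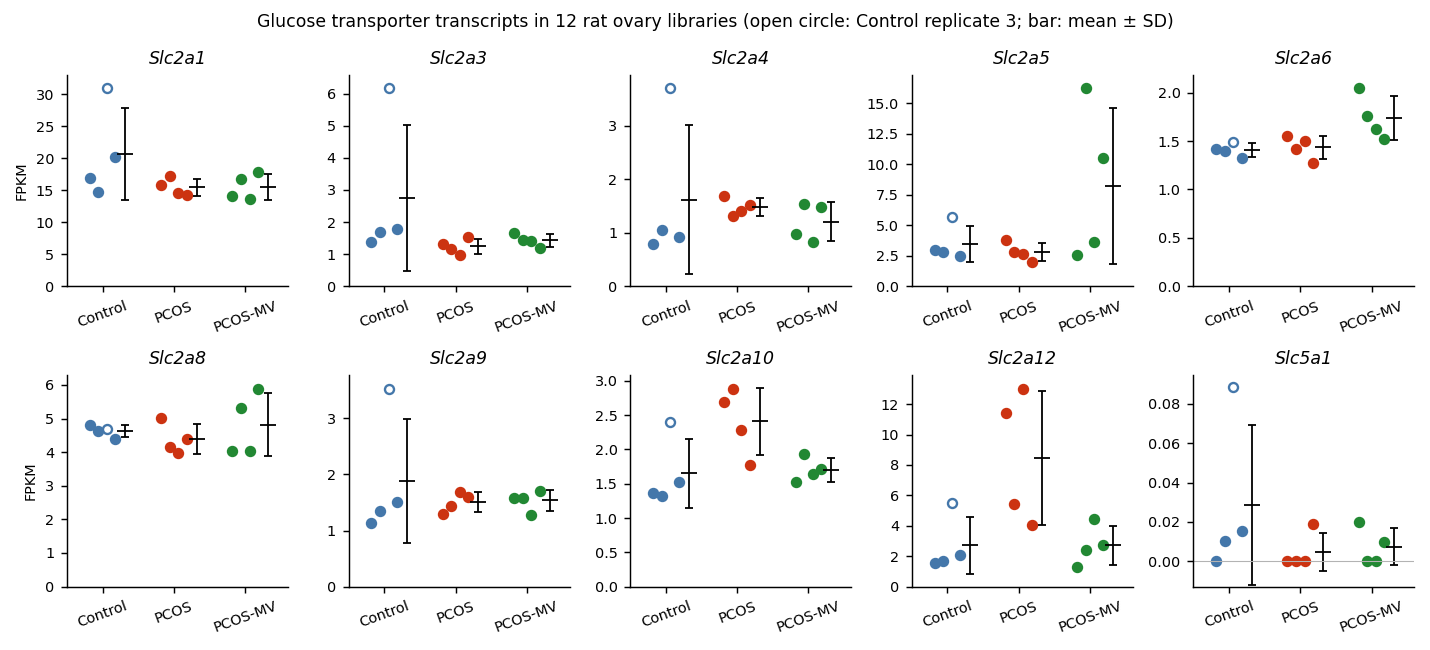
FPKM of the 10 transporters (vertical axes, each panel with its own scale) by group (Control, PCOS, PCOS-MV), with 1 point per library, 4 per group, and the mean ± SD in black; the open circle is Control replicate 3. Slc2a12 is higher in PCOS than in the other groups with overlap at the edges, Slc2a5 is high in 2 PCOS-MV libraries only, and Control replicate 3 is the highest control library in 9 of the 10 panels, all but Slc2a8.

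Slc2a12 (ENSRNOG00000011161; chromosome 1, 24003625 to 24056373, minus strand, in the coordinates of the deposited table, whose build is not given in the sources used here) encodes GLUT12, a class III carrier described in insulin-responsive tissues. It was 1.57, 1.70, 5.50 and 2.05 FPKM in Control replicates 1 to 4. It was 11.4, 5.41, 13.0 and 4.04 FPKM in PCOS replicates 1 to 4. The PCOS libraries were above 3 of the 4 control libraries, and Control replicate 3 lay between them. The group means were 2.71 ± 1.87 and 8.47 ± 4.41 FPKM (SD, n = 4 each), a ratio of 3.13. The difference was 1.34 on the log2(FPKM + 1) scale (SE 0.40, 95% interval 0.42 to 2.25, limma adjusted p = 0.0384). The exact two-sided permutation test of the same 4 against 4 libraries gave p = 0.0857, where the smallest p that this design allows is 0.0286. The call did not hold when Control replicate 1, 2 or 4 or PCOS replicate 1, 2 or 3 was left out (difference 1.10 to 1.48, limma adjusted p = 0.0512 to 0.0973). Over all genes, these fits called 1218 to 1495 higher, against 1594 with all 8 libraries, and 1544 to 2085 lower, against 2090. The Slc2a12 call held without Control replicate 3 (difference 1.64, limma adjusted p = 0.0102) and without PCOS replicate 4 (1.60, adjusted p = 0.0263, where 20.6% of all genes were called).

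Slc2a10 (ENSRNOG00000025384; chromosome 3, 162181974 to 162194804, plus strand) encodes GLUT10, a class III carrier of intracellular membranes. It was 1.37, 1.32, 2.40 and 1.52 FPKM in the control libraries and 2.70, 2.89, 2.28 and 1.78 FPKM in the PCOS libraries. Again only Control replicate 3 overlapped the PCOS libraries. The difference of 0.37 (SE 0.16) did not pass the test (limma adjusted p = 0.130). Without Control replicate 3 it was 0.49 (SE 0.13, adjusted p = 0.0281), where 29.2% of all genes were called.

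Slc2a4 (ENSRNOG00000017226; chromosome 10, 56552983 to 56558487, minus strand) encodes GLUT4, the insulin-responsive class I carrier of muscle and fat. It was 0.788, 1.05, 3.70 and 0.930 FPKM in the control libraries and 1.69, 1.31, 1.41 and 1.52 FPKM in the PCOS libraries. All 4 PCOS libraries were above 3 control libraries and below Control replicate 3. The difference was 0.05 (SE 0.29, limma adjusted p = 0.926) with all 8 libraries and 0.37 (SE 0.11, adjusted p = 0.0389) without Control replicate 3, so the outcome for Slc2a4 depended on that library.

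The other class I carriers had lower means in PCOS, without passing the test. Slc2a1 (ENSRNOG00000007284; chromosome 5, 138154673 to 138182897, plus strand) encodes GLUT1, the carrier of basal glucose uptake. It was 16.9, 14.8, 30.9 and 20.2 FPKM in the control libraries and 15.8, 17.2, 14.6 and 14.3 FPKM in the PCOS libraries. The groups overlapped, and the difference was -0.35 (SE 0.20, limma adjusted p = 0.226) with all 8 libraries and -0.15 (adjusted p = 0.380) without Control replicate 3. Slc2a3 (ENSRNOG00000049298; chromosome 4, 155752447 to 155763500, minus strand) encodes GLUT3, a carrier of high glucose affinity known from neurons. It was 1.38, 1.68, 6.16 and 1.78 FPKM in the control libraries and 1.32, 1.17, 0.979 and 1.54 FPKM in the PCOS libraries. In this case 3 of the 4 PCOS libraries were below every control library. The difference was -0.58 (SE 0.33, limma adjusted p = 0.220), and the exact permutation test gave p = 0.0571. Without Control replicate 3 the difference was -0.22 (limma adjusted p = 0.229). The Slc2a3 model of the table has 1482 bases, which is its coding length alone, so fragments from its untranslated parts were not counted towards its FPKM.

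Slc2a5, Slc2a6, Slc2a8 and Slc2a9 gave differences of -0.20, 0.02, -0.07 and -0.14, and none passed the test (limma adjusted p = 0.542 to 0.924). Slc2a8 (ENSRNOG00000022274; chromosome 3, 12020229 to 12029877, minus strand), which encodes the intracellular carrier GLUT8, was among the steadiest, from 4.40 to 4.82 FPKM in Control and from 3.97 to 5.01 in PCOS. Slc2a9 (ENSRNOG00000005302; chromosome 14, 77067503 to 77192702, plus strand), which encodes the urate carrier GLUT9, ranged from 1.14 to 3.53 FPKM in Control and from 1.29 to 1.68 in PCOS.

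Slc5a1 (ENSRNOG00000017775; chromosome 14, 82909981 to 82975263, minus strand) did not reach the level for testing. It was listed at 0 in 6 of the 12 libraries, and the highest value was 0.0886 FPKM, or about 8 fragments, in Control replicate 3. At the estimated depths, 0 fragments allow a level of up to 0.0276 to 0.0337 FPKM in these 6 libraries, a limit that covers counting error only. The exact permutation test gave p = 0.371 in PCOS against Control, 0.714 in PCOS-MV against PCOS and 0.457 in PCOS-MV against Control, values that rest on at most 8 fragments in a library.

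**Figure D3:**
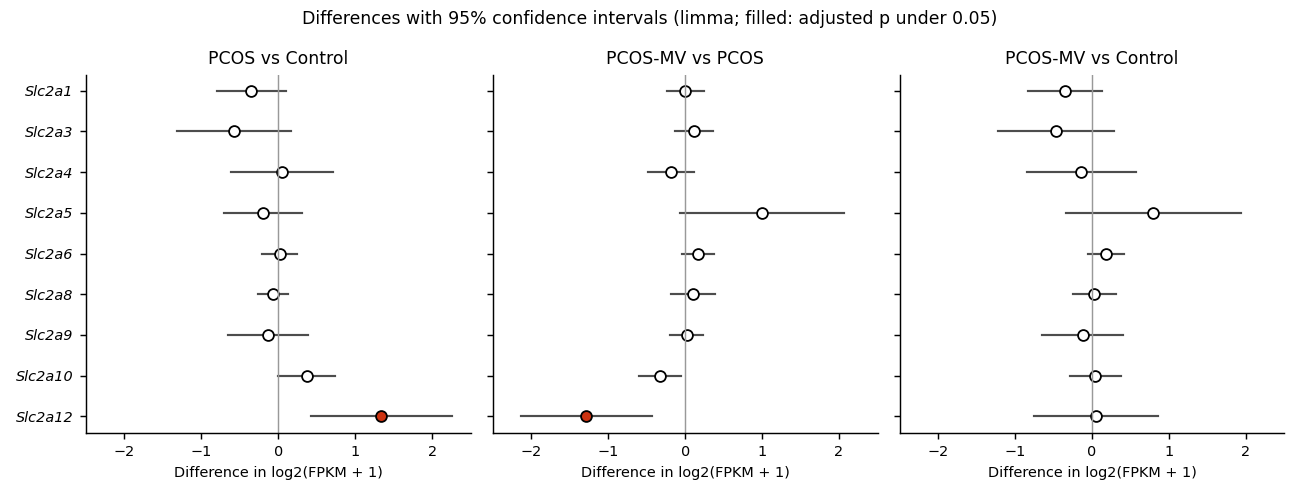
Differences in log2(FPKM + 1) (horizontal axes) of the 9 tested transporters in the 3 comparisons, with 95% confidence intervals from limma (4 against 4 libraries); filled points passed an adjusted p of 0.05. Slc2a12 is filled at 1.34 in PCOS vs Control and at -1.29 in PCOS-MV vs PCOS, and stands at 0.05 in PCOS-MV vs Control.

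The second question was how MV changed the transporters of PCOS ovaries. The PCOS libraries serve both comparisons, so a high or low PCOS value moves them in opposite directions. In PCOS-MV against PCOS, 1 of the 9 tested transporters was called, where 25.7% of all tested genes were. The median difference over the 9 was 0.02, beside 0.03 over all tested genes, and 6 were above 0. In 0 of the 9 did the groups separate without overlap, where they did in 30% of all tested genes.

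Slc2a12 was 1.31, 2.40, 4.43 and 2.73 FPKM in PCOS-MV replicates 1 to 4. Thus 3 of these libraries were below every PCOS library, and PCOS-MV replicate 3 at 4.43 FPKM was above PCOS replicate 4 at 4.04 FPKM. The PCOS-MV mean was 2.72 ± 1.29 FPKM (SD, n = 4), and the difference from PCOS was -1.29 (SE 0.37, 95% interval -2.14 to -0.44, limma adjusted p = 0.0359). The exact permutation test gave p = 0.0571. The call held in 3 of 8 fits that left out 1 library, namely those without PCOS replicate 2 or 4 or PCOS-MV replicate 3, and adjusted p was 0.0667 to 0.0875 without PCOS replicate 1 or 3 or PCOS-MV replicate 1, 2 or 4 (limma).

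Slc2a10 was 1.52, 1.94, 1.64 and 1.72 FPKM in the PCOS-MV libraries, and 3 of them were below every PCOS library. The difference of -0.32 (SE 0.12) did not pass the test (limma adjusted p = 0.0812), and it was -0.42 without PCOS replicate 4 (adjusted p = 0.0310), where 18.3% of all genes were called.

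Slc2a5 (ENSRNOG00000017693; chromosome 5, 167141875 to 167174310, plus strand), which encodes the fructose carrier GLUT5, split the PCOS-MV group. It was 2.57, 16.2, 3.59 and 10.5 FPKM in PCOS-MV replicates 1 to 4. In PCOS it was 3.79, 2.84, 2.67 and 2.02 FPKM, and in Control 2.96, 2.83, 5.70 and 2.49 FPKM. PCOS-MV replicates 2 and 4 were above all 10 other libraries, whereas PCOS-MV replicates 1 and 3 lay inside the control range. This split was not particular to Slc2a5. PCOS-MV replicates 2 and 4 correlated best with each other (r = 0.989). The luteal marker Scarb1 was 451 and 431 FPKM in them, against 1932 and 1352 FPKM in PCOS-MV replicates 1 and 3. Lhcgr, Star and Prlr of that list were also lower in both, but Akr1c18 and Ptgfr did not split this way. The cause was not tested. The difference from PCOS was 0.999 with a wide error (SE 0.47, limma adjusted p = 0.153), and it was 1.36 (SE 0.41, adjusted p = 0.0490) only when PCOS-MV replicate 1 was left out, where 23.5% of all genes were called.

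The other transporters did not pass the test between PCOS-MV and PCOS. Slc2a6 (ENSRNOG00000005900; chromosome 3, 5568321 to 5575136, minus strand) encodes GLUT6, a lysosomal carrier. It was 2.04, 1.76, 1.63 and 1.52 FPKM in the PCOS-MV libraries, against 1.55, 1.42, 1.495 and 1.28 FPKM in the PCOS libraries. Here 3 of the 4 PCOS-MV libraries were above every PCOS library, and the difference was 0.16 (SE 0.09, limma adjusted p = 0.220). Slc2a1, Slc2a3, Slc2a4, Slc2a8 and Slc2a9 differed by 0.00, 0.11, -0.18, 0.10 and 0.02. The 95% interval for Slc2a1 ran from -0.23 to 0.24, and its means were 15.5 ± 1.32 FPKM in PCOS and 15.6 ± 2.06 FPKM in PCOS-MV (SD, n = 4 each).

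PCOS-MV was also set against Control, to see what was left of the difference. None of the 9 tested transporters was called (limma), none had an unadjusted p under 0.05, and 0.00745% of all tested genes, or 1 gene, was called, with 1142 genes at an unadjusted p under 0.05. Without Control replicate 3, none of the 9 was called either, and 0.0298% of all genes were. Slc2a12 differed by 0.05 (SE 0.35, 95% interval -0.75 to 0.85, adjusted p = 0.975). Slc2a6 was 1.42, 1.40, 1.49 and 1.32 FPKM in Control, and all 4 PCOS-MV libraries were above all 4 control libraries, which was so in 1 direction or the other for 5.1% of all tested genes. The Slc2a6 difference was 0.18 (SE 0.10), with an exact permutation p of 0.0286, the smallest that 4 against 4 libraries can give, and a limma adjusted p of 0.640. It was 1 of 30 such permutation tests over 10 transporters and 3 comparisons, which were not adjusted. The limma fit gave an unadjusted p of 0.115 for the same difference, so it did not pass before adjustment either.

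**Figure D4:**
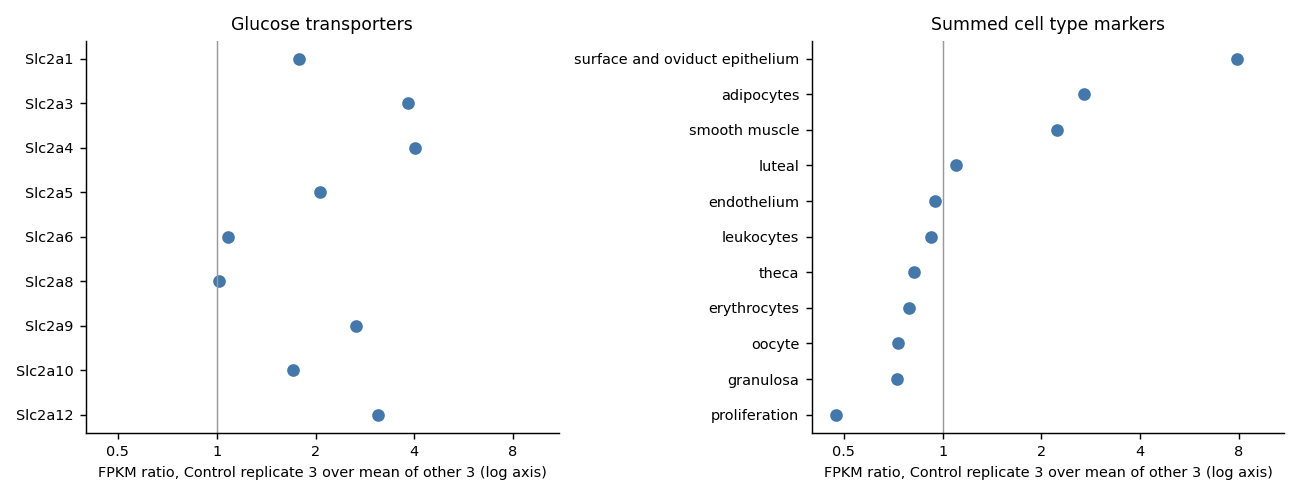
Ratio of FPKM in Control replicate 3 to the mean of the other 3 control libraries (horizontal log axes) for the 9 tested transporters (left) and for the summed FPKM of each cell type marker list (right); the line marks a ratio of 1. Transporters reach 4.01 for Slc2a4 and stay near 1 for Slc2a6 and Slc2a8, and the surface and oviduct epithelium markers reach 7.91.

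Control replicate 3 bears on each value given against the control group. It was more than 1.5 times the highest other control library for 7 of the 9 tested transporters, where 5.65% of all tested genes were. As the plot of its ratios shows, it stood at 4.01 times the mean of the other 3 control libraries for Slc2a4, 3.83 times for Slc2a3 and 3.10 times for Slc2a12. It stood at 1.08 times for Slc2a6 and 1.02 times for Slc2a8. Thus most but not all transporters were high in this library.

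Markers of other cell types were also high in Control replicate 3. The surface and oviduct epithelium markers summed to 223 FPKM there and to 21.3 to 37.0 FPKM in the other controls, and all 7 were higher in it than in the other controls. The 6 smooth muscle markers summed to 978 FPKM against 345 to 509 FPKM, and all 6 were higher. The 4 adipocyte markers summed to 36.1 FPKM against 5.27 to 21.3 FPKM, and all 4 were higher, while none of the 7 granulosa markers was higher (585 against 791 to 814 FPKM). The part of these cell types in the transporter values was not tested.

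Cell type markers also differed between the groups. Luteal markers summed to 1458 to 2652 FPKM in PCOS, against 5493 to 6400 in Control and 3825 to 9284 in PCOS-MV, and 4 of the 6 were called lower in PCOS and 1 higher, where 15.6% of all tested genes were called lower and 11.9% higher. Granulosa markers summed to 892 to 1288 FPKM in PCOS, against 585 to 814 in Control and 602 to 885 in PCOS-MV. Of the 7, 3 were called higher and 0 lower in PCOS. Most of this sum was Inha, at 388 to 540 FPKM in Control and 676 to 988 FPKM in PCOS. Amh went the other way, with 34.0 to 71.7 FPKM in Control and 18.7 to 45.6 in PCOS. The ranges of Inhbb (71.2 to 90.4 and 38.0 to 82.5) and Nr5a2 (19.4 to 62.6 and 17.7 to 25.9) also lay lower in PCOS. The sum therefore does not stand for all granulosa markers. Endothelial markers summed to 54.2 to 64.0 FPKM in PCOS, against 87.8 to 110.1 in Control and 75.4 to 103 in PCOS-MV, with 4 of 5 called lower in PCOS. Theca markers summed to 2193 to 4386 FPKM in PCOS, against 1979 to 2947 in Control and 1655 to 2996 in PCOS-MV, with 3 of 6 called higher and 2 lower in PCOS. Most of the theca sum in Control was Star, the cholesterol carrier of steroid-producing cells, which is also in the luteal list and was 1864 to 2793 FPKM in Control and 462 to 1151 FPKM in PCOS. The theca sum therefore does not stand for all theca markers. Cyp17a1 was 17.0 to 63.6 FPKM in Control, 655 to 1866 in PCOS and 1.57 to 88.1 in PCOS-MV. Insl3 was 1.76 to 8.84 FPKM in Control, 906 to 1188 in PCOS and 4.91 to 14.5 in PCOS-MV. Adipocyte markers summed to 0.691 to 3.85 FPKM in PCOS and 1.09 to 2.03 in PCOS-MV, against 5.27 to 36.1 in Control. The part of these cell types in the Slc2a12 values was not tested.

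The genes whose level most resembled that of Slc2a12 over the 12 libraries were Tmem200b, Tpcn1 and Tom1l1. Pearson's r of log2(FPKM + 1) with Slc2a12 was 0.94, 0.94 and 0.90, and without Control replicate 3 it was 0.95, 0.93 and 0.90. Since the groups differ and the genes were picked as the highest, these r values are descriptions over libraries that share their groups. Genes picked for following a gene called between these groups tend to differ between them as well. Their limma values below are therefore descriptions and no separate test. Tmem200b, a transmembrane protein, differed by 0.65 in PCOS against Control (limma adjusted p = 0.00839) and by -0.55 in PCOS-MV against PCOS (adjusted p = 0.00822). Tom1l1, an endosomal sorting adaptor, differed by 0.59 (adjusted p = 0.0081) and -0.48 (adjusted p = 0.0359), and Tpcn1, an endolysosomal cation channel, by 0.25 (adjusted p = 0.0746) and -0.25 (adjusted p = 0.0655), which did not pass.

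**Figure D5:**
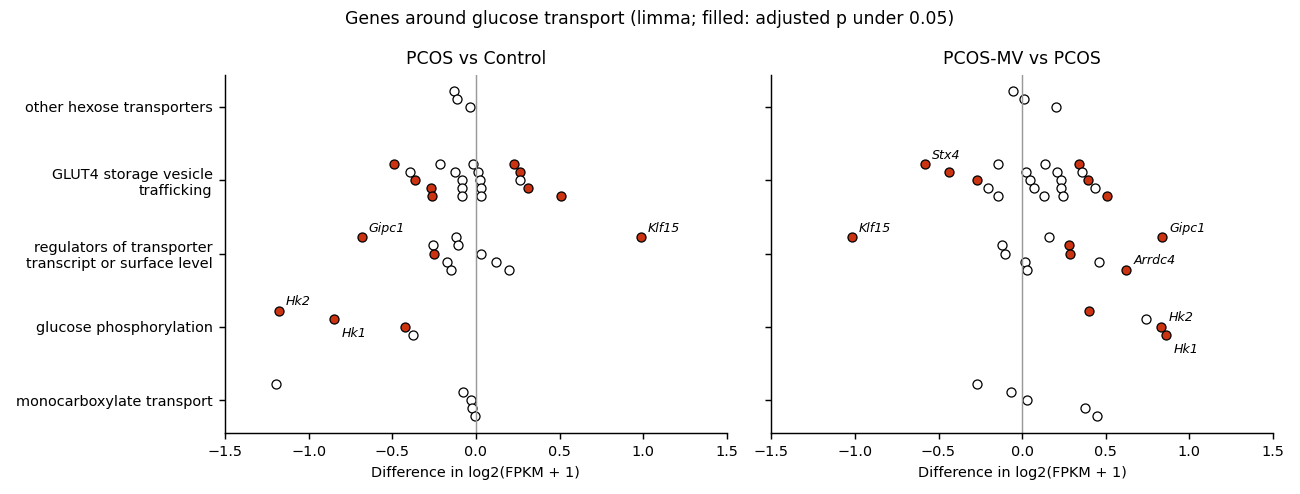
Differences in log2(FPKM + 1) (horizontal axes) for the tested genes of 5 lists around glucose transport, 1 point per gene, with PCOS against Control on the left and PCOS-MV against PCOS on the right; filled points passed a limma adjusted p of 0.05 over all tested genes. Klf15 stands at 0.98 and -1.02, while Hk2, Hk1 and Gipc1 lie below 0 in the first comparison and above 0 in the second.

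Once inside, glucose is trapped by phosphorylation. Of 4 tested genes of glucose phosphorylation, 3 were called lower in PCOS against Control and 0 higher, where 15.6% of all tested genes were called lower. The 4 differences ran from -1.18 to -0.38 (median -0.64, beside -0.03 over all tested genes). After MV, 3 were called higher and 0 lower, where 14.3% of all tested genes were called higher. The 4 differences then ran from 0.40 to 0.86 (median 0.79, beside 0.03). Hk2, the inducible hexokinase, was 16.4 ± 6.98 FPKM in Control, 6.26 ± 0.934 in PCOS and 12.1 ± 3.03 in PCOS-MV (SD, n = 4), with differences of -1.18 (limma adjusted p = 0.0107) and 0.83 (adjusted p = 0.0133). Hk1, the widespread hexokinase, differed by -0.85 in PCOS against Control (limma adjusted p = 0.00697) and by 0.86 after MV (adjusted p = 0.00524). Adpgk, an ADP-dependent glucokinase, differed by -0.42 and 0.40 (limma adjusted p = 0.00558 and 0.0354).

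Among 11 tested regulators of transporter transcripts or of their place at the cell surface, 1 was called higher in PCOS and 2 lower. The median was -0.12, and the share called was near the 27.4% over all genes. After MV, 4 were called higher and 1 lower (median 0.16), where 25.7% of all genes were called. Klf15, a transcription factor known to raise Slc2a4 in fat and muscle, was 6.15 ± 1.41 FPKM in Control, 12.9 ± 0.351 in PCOS and 5.89 ± 0.637 in PCOS-MV (SD, n = 4). It rose by 0.98 in PCOS (limma adjusted p = 0.00149) and fell by 1.02 after MV (adjusted p = 0.00014). Gipc1, an adaptor that binds the tail of GLUT1, was 33.1 ± 2.45, 20.2 ± 1.74 and 36.8 ± 1.86 FPKM in Control, PCOS and PCOS-MV, with differences of -0.68 and 0.84 (limma adjusted p = 0.000529 and 0.000259). Arrdc4, an arrestin-like protein that lowers glucose uptake, and Hif1a, the hypoxia-inducible factor, rose after MV by 0.62 (limma adjusted p = 0.0267) and 0.29 (adjusted p = 0.0139). In PCOS against Control the same 2 genes gave -0.12 (adjusted p = 0.478) and -0.15 (adjusted p = 0.231), which did not pass.

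Among 20 tested genes of GLUT4 storage vesicle traffic, 4 were called higher and 4 lower in PCOS (median -0.05). After MV, 3 were called higher and 3 lower (median 0.13). With 27.4% and 25.7% of all genes called, the list was not read as standing apart. Stx4, the plasma membrane syntaxin on which these vesicles dock, was 20.1 ± 1.11, 29.1 ± 2.52 and 19.2 ± 2.22 FPKM in Control, PCOS and PCOS-MV (SD, n = 4). It rose by 0.51 in PCOS (limma adjusted p = 0.00188) and fell by 0.58 after MV (adjusted p = 0.00367). Its binding partner Stxbp3 rose by 0.31 (limma adjusted p = 0.0283) and fell by 0.44 (adjusted p = 0.00721). Tbc1d1, a Rab GTPase-activating protein that holds the vesicles back, fell by 0.49 in PCOS (limma adjusted p = 0.00179) and rose by 0.40 after MV (adjusted p = 0.0102). Rhoq, a small GTPase of this pathway, rose by 0.51 after MV (limma adjusted p = 0.0309) and gave -0.21 in PCOS (adjusted p = 0.187).

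Of the other hexose transporters and of the monocarboxylate transporters, which carry lactate and pyruvate, none was called. The first list had 3 tested genes of 11 listed (medians -0.12 and 0.01), and the second had 5 tested of 6 listed (medians -0.03 and 0.03). Slc2a2, which encodes the liver and islet carrier GLUT2 and was named after its values were seen, was at most 0.0228 FPKM in any library. In PCOS-MV against Control, 0 genes of the 5 lists were called by limma. These lists are given by counts and medians, and no list was tested as a whole.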

How the data were processed

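Ovarian RNA of 12 rats (4 per group) was sequenced in 1 library each. Per the methods of the study, low-quality reads were dropped, HISAT2 placed the rest on the genome, featureCounts tallied them by gene, and the authors scaled these tallies by length and depth to the deposited FPKM values. The submitters' processing notes name STAR 2.5.1b and HTSeq 0.6.0 instead, and which tools made the table was not settled. The columns of the PCOS-MV group carry another prefix (MG) in the table and were assigned by elimination of the other group names. The table also holds the authors' fold changes and p-values of their own comparisons, which were not used here.

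The 26928 transcript lines repeat the values of 19730 genes, and 1 line per gene was kept. The 13430 genes whose mean reached 1 FPKM entered limma 3.58.1 (R 4.3.3, lmFit and eBayes with trend) on the log2(FPKM + 1) scale, 2 groups at a time, with no covariate. Benjamini-Hochberg adjusted p under 0.05 over all genes tested was the call. Single transporters were also compared by exact two-sided permutation tests. On simulated data, 90.5% of 200 genes changed by 1.5 (log2) among 13430 were recovered, and 5.34% of calls were false (10 sets). Recovery of changes smaller than 1.5 was not tested. The largest transporter difference with all libraries was 1.34, for Slc2a12 in PCOS against Control, so the 90.5% does not apply to the transporters.

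The named genes were the 10 transporters, up to 4 called genes with the largest difference from each list, and for each called transporter the 3 genes of highest Pearson's r. Slc2a2 and the markers Star, Cyp17a1, Insl3, Inha, Amh, Inhbb, Nr5a2, Scarb1, Lhcgr, Prlr, Akr1c18 and Ptgfr were named after their values were seen. The transporters and the lists were chosen with earlier results of these data known. Of the marker and pathway lists, genes not matched in the table were left out. Alternatives covered the pseudocount (0.1), no filter, 1 model for 12 libraries, the replicate number as a block, median-ratio scaling and each library left out in turn. Promoter sequences came from RefSeq (GRCr8), whose coordinates were not mixed with those of the table. Depth limits are given as estimated from the steps between low FPKM values.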

Additional observations from a re-analysis of the deposited data

Results flagged for a closer look

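In groups of 4 libraries, a value was listed here when its gap to the nearest other library was a larger part of the range of the group than the 95% critical value of Dixon's test. Of 33 groups examined, 7 were listed, and 6 of the 7 were in Control replicate 3. For independent groups chance would give about 1.65. These groups share libraries, and some hold the sum of the 10 transporters, so the 7 cannot be judged against 1.65. In that library Slc2a3 was 6.16 FPKM against 1.38 to 1.78 in the other controls, and Slc2a4 was 3.70 FPKM against 0.788 to 1.05. Slc2a5 was 5.70 FPKM there against 2.49 to 2.96, Slc2a9 was 3.53 FPKM against 1.14 to 1.51, and Slc2a12 was 5.50 FPKM against 1.57 to 2.05. The summed FPKM of the 10 transporters was 64.2 against 30.8 to 36.3. The remaining value was Slc5a1 in PCOS replicate 4, at 0.0190 FPKM with 0 in the other 3 PCOS libraries, which is about 2 fragments. With 0 in the other 3 libraries, any value above 0 would have been listed. The part of the epithelial, smooth muscle and adipocyte markers that were also high in Control replicate 3 was not tested.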

How the results depend on the processing

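Of 351 transporter differences refitted under the alternatives, 310 kept their direction and side of the threshold, 13 were no longer called, 4 became called and 24 changed sign, none of the last being a called value. Slc2a12 stayed above 0 in PCOS against Control (1.10 to 1.64) and below 0 in PCOS-MV against PCOS (-1.56 to -1.05) under each alternative. With no filter on low values, 0 transporters were called in either comparison (limma adjusted p for Slc2a12 0.0728 and 0.0685). Leaving out 1 library gave 0 to 3 transporters called in PCOS against Control and 0 to 2 in PCOS-MV against PCOS, where the number of all genes called higher ran from 1272 to 1934 (1278 without PCOS replicate 2 and 1272 without PCOS replicate 4, against 1918 with all 8 libraries). In PCOS-MV against Control, 1 model for 12 libraries called 0 genes higher and 1 lower, and leaving out 1 library gave 1 to 2 higher and 0 to 2 lower, with 0 transporters in each.

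Sign changes of values that were not called came mostly from leaving out 1 library. In PCOS against Control the ranges were -0.10 to 0.37 for Slc2a4, -0.31 to 0.0086 for Slc2a5, -0.0074 to 0.048 for Slc2a6 and -0.26 to 0.10 for Slc2a9. In PCOS-MV against PCOS they were -0.062 to 0.060 for Slc2a1 and -0.024 to 0.070 for Slc2a9, and Slc2a1 was -0.020 with median-ratio scaling. In PCOS-MV against Control they were -0.28 to 0.19 for Slc2a4, -0.054 to 0.10 for Slc2a8, -0.24 to 0.12 for Slc2a9, -0.015 to 0.17 for Slc2a10 and -0.15 to 0.36 for Slc2a12. The cause was not tested.

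The deviations of libraries with the same replicate number correlated weakly ( -0.03 to 0.02 in PCOS against Control, 0.04 to 0.17 in PCOS-MV against PCOS and -0.05 to 0.22 in PCOS-MV against Control). In PCOS-MV against PCOS 3 of the 4 pairs were over 0.1, but in no comparison were all 4, so the numbers were not taken as pairs. As a hint from the data and not from the design, 7 of 8 libraries correlated best with their own number in PCOS-MV against PCOS, 0 of 8 in PCOS against Control and 2 of 8 in PCOS-MV against Control. With the replicate number as a block, 1239 genes were called higher and 1666 lower in PCOS against Control, 1706 and 1373 in PCOS-MV against PCOS, and 0 and 0 in PCOS-MV against Control, and Slc2a12 was called in the first 2 comparisons (limma adjusted p = 0.0174 and 0.0392).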
